A study of Mus musculus with 4 samples.

Results

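Cornified envelope and squamous differentiation genes are the 40 genes described here, out of 17630 genes with values in the files. They were listed by name for their known roles in stratified epithelium. The list was drawn up with the changes between these libraries in view, so its members were chosen by measured values of all 3 comparisons below and those values are a description. All 40 genes were found by their NCBI Gene identifiers.

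In a stratified epithelium such as the epidermis, basal cells leave the basement membrane and turn into flat, dead, crosslinked squames. Small proline-rich proteins, involucrin, loricrin and plakins are crosslinked by transglutaminases under the membrane to form the cornified envelope, while desmosomes hold the cells together until kallikrein proteases release them. The mammary ductal epithelium is not normally a cornifying tissue, although its basal cells share keratins and the regulator p63 with the basal layer of skin.

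RNA-seq was analysed for 4 libraries from WT mice, 1 per group, in a study of sympathetic nerves and mammary stem cells. Sorted basal cells without treatment (sorted control) were set against sorted basal cells of mice given 6-OHDA (6-hydroxydopamine, a toxin that destroys sympathetic nerve endings). Colonies grown from basal cells in Matrigel without agonists (control colonies) were set against colonies grown with salbutamol and phenylephrine, called SP, which activate β2 and α1 adrenergic receptors. The third comparison set the control colonies against the sorted control and asks what differed between cultured and freshly sorted cells. The sort took CD24-positive, CD29-high cells and removed cells with CD31, CD45 or TER119. The label of the SP library carries the number 200 without a unit, and neither the age of the mice nor any pooling of animals is stated for these libraries.

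The deposited values are FPKM (fragments scaled for transcript length and library size). They summed to 508071 in the sorted control, 517504 with 6-OHDA, 577631 in control colonies and 588202 with SP. From the steps between low values, 1 FPKM on 1 kilobase of transcript stood for roughly 14.9 to 18.8 fragments, with scores of 0.347 to 0.59 where 1 would be a perfect fit, so this is a rough guide. Changes are differences of log2(FPKM + 1), which understate the change of low genes, among genes with a mean of at least 1 FPKM over the 2 libraries compared. A gene is called higher or lower when the difference is over 0.3, and a stricter threshold of 1 is given as well. A gene below 1 FPKM in 1 of the 2 libraries passes only through the other, so the direction of its difference is fixed by the filter. With 1 library per group there is no replicate check and no test, and each comparison is between 2 libraries. In such bulk libraries, fewer cells of a type and less RNA per cell cannot be told apart.

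The basal markers bore out the label of the sorted control, with 3595 FPKM of Krt14, 1002 of Krt5, 1949 of the smooth muscle actin Acta2 and 42.8 of Trp63, the gene of p63. The same library held endothelial transcripts, with 107 FPKM of Pecam1, which encodes the CD31 that the sort selects against. It also held luminal transcripts, with a sum of 1737 FPKM over the luminal markers and 560 of Krt8. In control colonies Krt14 stood at 3298 FPKM and Krt5 at 1888, whereas the contractile genes Acta2 and Myh11 stood at 402 and 11.2.

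Not every stage of cornification was represented among the 40 genes. The envelope proteins of the granular layer were scarcely detected: involucrin (Ivl), loricrin (Lor) and filaggrin (Flg) reached at most 0.53, 0.54 and 0.19 FPKM in any library. Their levels went against the name cornified envelope for the last stage of the process. The transglutaminase Tgm3, the barrier lipoxygenase Alox12b, the gasdermin Gsdma and the protease inhibitor Serpinb3a stayed at or below 0.17, 0.10, 0.37 and 0.04 FPKM.

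At least 1 FPKM was reached by 17 of the 40 genes in the sorted control, 19 in the 6-OHDA library, 27 in control colonies and 31 with SP. Their FPKM summed to 2360, 1915, 2034 and 4365 in that order. The most abundant member was Sfn in both sorted libraries, at 1707 and 1245 FPKM, and Ly6d in both colony libraries, at 976 and 1059. The SP library held the highest level of 31 of the 40 genes. Of the 32 with at least 1 FPKM in some library it held the highest level of 26 (81.2%), against 3359 of 13068 genes with such a level (25.7%); since the members were chosen with these values known, nothing is read from that difference.

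**Figure D1:**
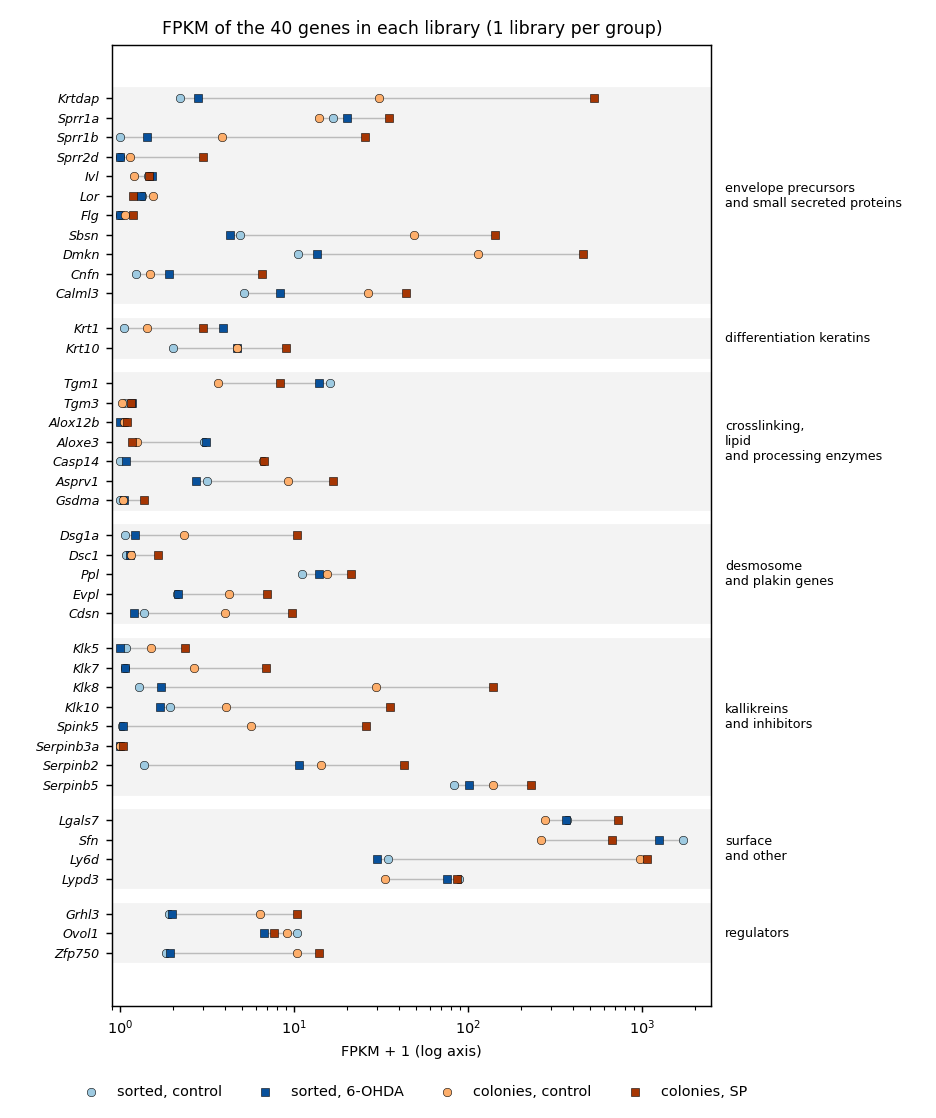
Level of each of the 40 genes in the 4 libraries, as FPKM + 1 on a log axis, grouped by role. Each symbol is 1 library, and a grey line joins the lowest and the highest. Krtdap runs from 1.21 FPKM in the sorted control to 528 with SP, while Ivl, Lor and Flg lie near the left edge in all 4 libraries.

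The comparison of SP with control colonies asks what the adrenergic agonists did to basal cells in culture. Of the 40 genes, 30 passed the filter on low values, 27 were higher with SP and 0 were lower. Among all 11849 genes compared, 1385 were higher (11.7%) and 2351 lower (19.8%). At the stricter threshold 19 members were higher and 0 lower, against 237 genes higher (2%) and 158 lower (1.33%). Of the 19, Cnfn, Krt1 and Sprr2d passed the filter only through the SP library, so their direction was fixed by it. The median change was 1.34 over the 30 that passed and 0.89 over all 40, against -0.07 over all genes compared. After scaling by the median ratio the genes higher made up 49.9% of all genes past the threshold instead of 37.1%, and 27 members were still counted as higher. The 3 that passed without a call were Casp14, Ly6d and Ovol1.

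In the 6-OHDA comparison, which asks what loss of sympathetic nerves did to basal cells in the animal, 19 of the 40 passed. Of these, 7 were higher (Serpinb2, Krt1, Krt10, Calml3, Dmkn, Krtdap and Ppl) and 2 lower (Ovol1 and Sfn), while 10 lay between the thresholds. Among 11749 genes, 1857 were higher (15.8%) and 981 lower (8.35%). At the stricter threshold 3 members were higher and 0 lower, against 123 genes higher (1.05%) and 106 lower (0.902%). Of the 3, Serpinb2 and Krt1 passed the filter only through the 6-OHDA library, so their direction was fixed by it. With a mean of at least 5 FPKM, 0 members were higher by more than 1. The median change was 0.04 over the 19 and 0.05 over all 40, close to the 0.06 of all genes compared. The genes higher made up 65.4% of those past the threshold, 50.5% after scaling by the median ratio and 47.4% after quantile normalization. Scaling by the median ratio centres the median change, so an almost even split is largely fixed by it, here and in the other comparisons. Both scalings lost the calls of Krtdap and Ppl, and quantile normalization also that of Dmkn.

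Between the control colonies and the sorted control, 26 of the 40 passed. Of these 19 were higher in colonies, 5 were lower (Tgm1, Sfn, Lypd3, Aloxe3 and Lgals7) and 2 were neither (Sprr1a and Ovol1). Cell type markers were called as well, with 14 of 21 luminal markers higher in colonies and 3 lower, beside 55.7% and 26.6% of all genes. Of 20 basal and myoepithelial markers 13 were lower and 2 higher, and their part in the members' changes was not tested. The difference between all genes was wide, with 6817 of 12244 higher (55.7%) and 3252 lower (26.6%), so a call at this threshold says little. At the stricter threshold 17 members were higher and 4 lower, against 3761 genes higher (30.7%) and 1619 lower (13.2%). Sprr1b, Klk8, Klk10, Serpinb2, Casp14, Spink5, Grhl3, Zfp750 and Cdsn passed the filter only through the colonies, and Aloxe3 only through the sorted control. Their direction was fixed by the filter. The median of all genes was 0.45, and scaling by the median ratio shifted it by -0.45, with 50.2% of the genes past the threshold then higher instead of 67.7%. The members' median was 1.54 over the 26 and 0.62 over all 40, and 1.21 over the 26 after that scaling. Under it Ppl and Serpinb5 lost their calls and Sprr1a and Ovol1 became lower. This comparison shares the sorted control with the 6-OHDA comparison and the control colonies with the SP comparison, so the values are given side by side only.

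The 6-OHDA and SP comparisons share no library, but the members were chosen with the values of both known. Of the 18 members that passed in both, 7 were higher in both, which is all 7 of those higher with 6-OHDA and 7 of the 16 higher with SP. As 16 of the 18 were higher with SP, most of this overlap was fixed in advance, and nothing is read from it. Among the 7, Krtdap, Ppl and Dmkn lost their 6-OHDA call under quantile normalization. Sfn was the 1 member lower with 6-OHDA and higher with SP. Among all 10799 genes that passed in both, 306 were higher in both, out of 1670 higher with 6-OHDA and 1126 higher with SP.

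**Figure D2:**
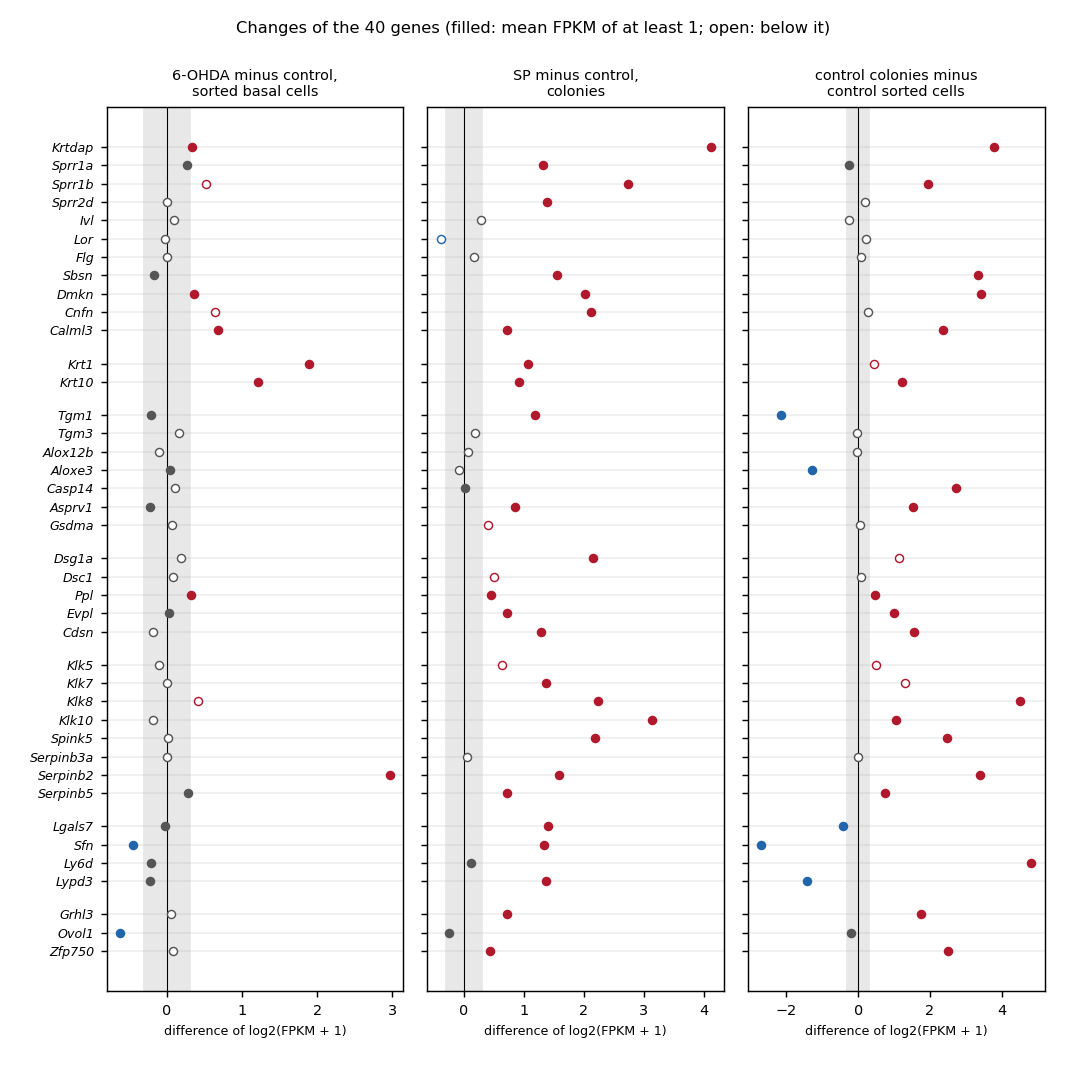
Change of each of the 40 genes in the 3 comparisons, as a difference of log2(FPKM + 1). Filled points passed the filter of a mean of at least 1 FPKM, open points did not, the grey band spans -0.3 to 0.3, red points lie above it and blue points below it. In the SP panel the filled points run from -0.25 for Ovol1 to 4.11 for Krtdap.

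Among envelope precursors and small secreted proteins, 8 of 11 genes passed in the SP comparison. All 8 were higher, 7 of them by more than 1, beside 11.7% and 2% of all genes. Of the 7, Cnfn and Sprr2d passed the filter only through the SP library, so their direction was fixed by it. As the members were chosen with these values known, the counts are a description. The FPKM of all 11 summed to 35.4 in the sorted control, 46.1 with 6-OHDA, 232 in control colonies and 1238 with SP. Krtdap encodes keratinocyte differentiation-associated protein, a small secreted protein of suprabasal keratinocytes. Its level was 1.21 FPKM in the sorted control, 1.79 with 6-OHDA, 29.5 in control colonies and 528 with SP. That was a 17.9-fold higher FPKM with SP and a change of 4.11, and it took the gene from place 3156 to place 162 among all genes of its library.

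Dermokine (Dmkn), a secreted protein of the spinous and granular layers, stood at 9.50, 12.5, 112 and 458 FPKM in the sorted control, the 6-OHDA library, control colonies and the SP library. The order of the 4 libraries was thus that of Krtdap, with a change of 2.02 with SP and of 0.36 with 6-OHDA. Suprabasin (Sbsn), a further secreted protein of the suprabasal layers, measured 3.85, 3.30, 47.9 and 142 FPKM in the same order of libraries. It was higher with SP by 1.55 and did not pass the threshold with 6-OHDA. All 3 stood higher in control colonies than in the sorted control, by 24.4-fold for Krtdap, 11.8-fold for Dmkn and 12.4-fold for Sbsn.

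Sprr1a and Sprr1b encode small proline-rich proteins that bridge other envelope proteins. Sprr1a was at 15.7 FPKM in the sorted control, 19.1 with 6-OHDA, 12.9 in control colonies and 34.0 with SP. Sprr1b was listed at 0 in the sorted control and measured 0.43, 2.83 and 24.6 FPKM in the other libraries. The pair differed in sorted cells, where only Sprr1a was present above 1 FPKM, and both were higher with SP, by 1.33 and 2.74. Sprr2d was listed at 0 in both sorted libraries and stood at 0.14 and 1.98 FPKM in the colonies, values that rest on an estimated 1.1 and 15.3 fragments, so no fold is given. Reads of the near-identical Sprr2 genes may be split between copies by the authors' quantification, and the same holds for the Dsg1, Krt6 and Stfa copies below.

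Cornifelin (Cnfn), an envelope component, stood at 0.23, 0.91, 0.49 and 5.49 FPKM in the sorted control, the 6-OHDA library, control colonies and the SP library. It passed the filter in the SP comparison only, with a change of 2.12. Calml3, a calmodulin-like protein of epithelial cells, had 4.13 FPKM in the sorted control, 7.23 with 6-OHDA, 25.4 in control colonies and 42.6 with SP. It was called higher in each comparison, with changes of 0.68 with 6-OHDA, 0.72 with SP and 2.37 in culture. Lor was the 1 member whose value was more than 0.3 lower with SP, at 0.54 and 0.18 FPKM, below the filter.

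Keratins Krt1 and Krt10 pair in the filaments of cells that have left the basal layer. Krt1 had 0.05 FPKM in the sorted control, 2.89 with 6-OHDA, 0.43 in control colonies and 1.99 with SP. Krt10 had 1.02, 3.68, 3.70 and 7.95 FPKM in the same order. Both were higher with 6-OHDA, by 1.89 and 1.21, and with SP, by 1.06 and 0.93, but even the highest level, 7.95 FPKM for Krt10, was small beside Krt14.

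Among the enzymes, 3 of 7 genes passed in the SP comparison and 2 of them were higher, beside 11.7% of all genes. Tgm1, the transglutaminase that crosslinks envelope proteins at the membrane, stood at 15.1 FPKM in the sorted control, 12.9 with 6-OHDA, 2.64 in control colonies and 7.25 with SP. It was thus lower in culture, by 2.14 on the log2 scale, and higher with SP by 1.18, without reaching its level in sorted cells. Asprv1, a protease that processes profilaggrin, was at 2.17, 1.71, 8.17 and 15.6 FPKM in that order of libraries, and was higher with SP by 0.86. Casp14, a caspase that takes part in the breakdown of filaggrin, was listed at 0 in the sorted control and had 0.08 FPKM with 6-OHDA, 5.63 in control colonies and 5.73 with SP. Its change with SP was 0.02, so it was a gene of the colonies whose level was the same in both. Aloxe3, a lipoxygenase of the skin barrier, was found mainly in sorted cells, at 2.02 and 2.11 FPKM against 0.24 and 0.17 in the colonies.

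Of the desmosome and plakin members, chosen with these values known, 4 passed in the SP comparison and 4 were higher, beside 11.7% of all genes. Desmoglein Dsg1a, the adhesion protein of the upper layers, had 0.06 FPKM in the sorted control, 0.21 with 6-OHDA, 1.33 in control colonies and 9.37 with SP. Corneodesmosin (Cdsn), which seals desmosomes of the cornified layer, had 0.36, 0.20, 2.99 and 8.73 FPKM in that order. Their changes with SP were 2.15 and 1.29. The plakins, which anchor the envelope to desmosomes and filaments, differed less: periplakin (Ppl) was at 10.1, 12.8, 14.5 and 20.2 FPKM, and envoplakin (Evpl) at 1.11, 1.15, 3.23 and 6.00. Desmocollin Dsc1, a partner of Dsg1a, did not pass in any comparison and was at most 0.64 FPKM.

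Kallikreins are serine proteases that cut desmosomal proteins so that squames can be shed, and Spink5 encodes their inhibitor LEKTI. Klk8 stood at 0.28 FPKM in the sorted control, 0.71 with 6-OHDA, 28.4 in control colonies and 137 with SP. Klk10 stood at 0.93, 0.70, 3.04 and 34.6 FPKM, and Klk7 at 0.07, 0.07, 1.65 and 5.89. Each was below 1 FPKM in both sorted libraries and higher with SP, by 2.23, 3.14 and 1.38. Klk5 followed the same order in the colonies at 0.51 and 1.36 FPKM, below the filter. Spink5 was at 0.02, 0.03, 4.67 and 24.9 FPKM, so the inhibitor was higher in the same library as the proteases, by 2.19.

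The serpins of the list differed in level and in the size of their changes. Serpinb5 (maspin), an epithelial serpin, was at 81.7 FPKM in the sorted control, 99.7 with 6-OHDA, 138 in control colonies and 228 with SP. Serpinb2, the plasminogen activator inhibitor of stressed keratinocytes, was at 0.36, 9.63, 13.2 and 41.9 FPKM. It was 26.8-fold higher with 6-OHDA, a change of 2.97 and the largest of any member on the log2(FPKM + 1) scale. No fold is ranked for Krt1, which stood at only 0.05 FPKM in the sorted control. Serpinb5 lay just inside the threshold there, at 0.29, and was higher by 0.72 with SP.

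Surface and cytosolic members included Sfn and Lgals7, the most abundant members in both sorted libraries. Stratifin (Sfn), an adaptor protein of stratified epithelia, had 1707 FPKM in the sorted control, 1245 with 6-OHDA, 263 in control colonies and 668 with SP. The galectin Lgals7 had 369, 363, 275 and 728 FPKM, and Lypd3, a membrane-anchored protein of the upper layers, had 87.9, 74.7, 32.1 and 84.8. All 3 were lower in control colonies than in the sorted control and higher with SP, by 2.55-fold for Sfn, 2.65-fold for Lgals7 and 2.64-fold for Lypd3. With SP only Lgals7 went above its level in the sorted control. Ly6d, a membrane-anchored marker of keratinocytes, had 33.6 and 29.0 FPKM in sorted cells and 976 and 1059 in colonies, a 29.0-fold difference between the controls with a change of 0.12 with SP.

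The 3 regulators were expressed at modest levels. Grhl3, a grainyhead factor needed for barrier formation, stood at 0.90 FPKM in the sorted control, 0.97 with 6-OHDA, 5.36 in control colonies and 9.44 with SP. Zfp750, a p63 target that drives late differentiation, stood at 0.84, 0.94, 9.34 and 12.9 FPKM. Both were higher in culture and, by 0.72 and 0.43, with SP. Ovol1, a repressor that restrains basal cell growth, went another way, at 9.39, 5.74, 8.14 and 6.68 FPKM, and fell by 0.62 on the log2 scale with 6-OHDA.

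Several members are neighbours in the genome, given here in GRCm38.p6. Sbsn, Dmkn and Krtdap lie side by side on chromosome 7 (chr7:30732674-30791089), an interval chosen after the values were seen, where the only other gene of the files was Gapdhs, which overlaps the start of Sbsn and stayed at or below 0.05 FPKM. Further along the chromosome are Klk10, Klk8, Klk7 and Klk5 (chr7:43781054-43851181). Of the 2 other genes in that stretch, Klk6 was listed at 0 in both sorted libraries and stood at 2 and 11.3 FPKM in the colonies, while the other was at most 0.09 FPKM.

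The epidermal differentiation complex, from Lor to Flg, spans chr3:92080271-93293689 and held 32 genes of the files, 6 of them members. In the sorted control 26 of the 32 were listed at 0, in the 6-OHDA library 20, in control colonies 9 and with SP 3. Of the 9 that passed in the SP comparison 7 were higher and 2 lower. The lower ones were late cornified envelope genes, and the larger change was that of Lce1g, at 9.51 and 3.90 FPKM in the colonies and listed at 0 in both sorted libraries. Sprr2a1 stood at 0.76, 1.4, 0.10 and 5.96 FPKM in the sorted control, the 6-OHDA library, control colonies and the SP library, and Sprr2a3 at 0.59, 1.61, 0.10 and 3.62. Most genes of this cluster stayed below the filter, so no direction is given for its families.

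**Figure D3:**
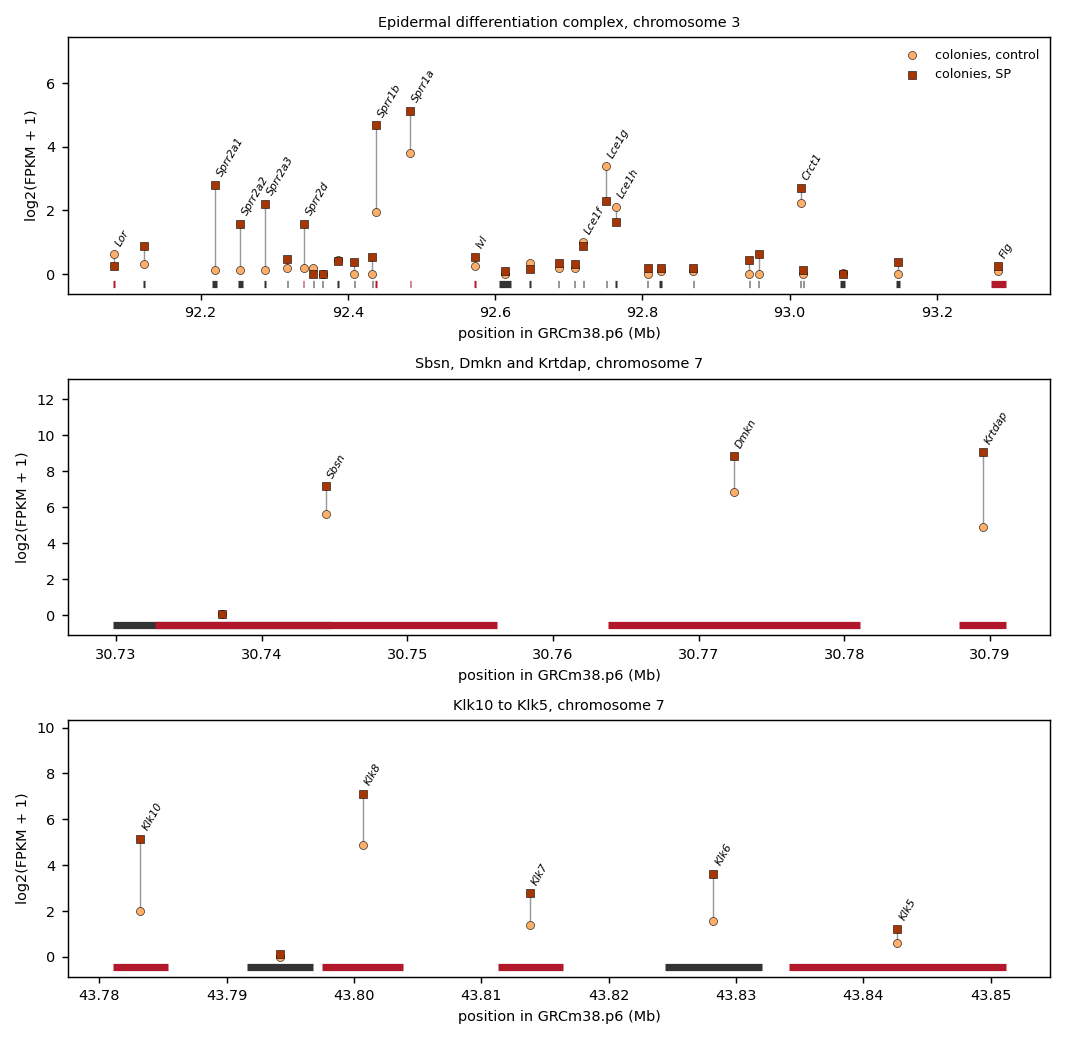
Levels in control colonies (circles) and SP colonies (squares), as log2(FPKM + 1), at the position of each gene in GRCm38.p6. Bars at the bottom of each panel are the genes to scale, red for members. The square of Krtdap lies farthest above its circle, and the square of Lce1g lies below its circle.

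On chromosome 1, the stretch from Serpinb5 to Serpinb2 holds 8 genes of the files with these at its ends (chr1:106861175-107525600). Serpinb11 was the 1 non-member that passed in any comparison, at 1.80 FPKM in the sorted control, 8.87 with 6-OHDA, 0.11 in control colonies and 0.68 with SP. With 6-OHDA it was higher like Serpinb2, whereas in culture the values of the pair moved apart.

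Promoter windows from RefSeq (GRCm38.p6; 250 bases before to 50 after a transcript's start, with more than 1 for some genes) were matched for 28 of the 40 genes, and searched on both strands for motifs of regulators of these genes. None was matched for Dsc1, Zfp750, Krt1, Dsg1a, Calml3, Ppl, Gsdma, Aloxe3, Ly6d, Evpl, Spink5 or Ovol1. The AP-1 letters TGANTCA, which read the same on both strands, were found in 11 of the 28 (39.3%), against 2425 of 27025 genes (8.97%) and 7.81% of all windows. The 11 were Krtdap, Sprr1a, Sprr1b, Sprr2d, Ivl, Lor, Flg, Sbsn, Dmkn, Serpinb2 and Serpinb5. The KLF letters CCACACCC were found in 5 of 28 (17.9%; Ivl, Cnfn, Serpinb5, Casp14 and Alox12b), against 4.09% of genes and 3.56% of windows. The grainyhead letters AACCGGTT were in 0 of 28, and in 0.174% of genes and 0.146% of windows. The windows of Sbsn and Serpinb2 with the AP-1 letters, and 1 of those of Dmkn, lie at transcript starts well inside the gene. A match is a description, and any link to level or change was not tested.

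Stretches from 150 bases before to 10 bases after a transcript's start are shown for the neighbours Krtdap, Sbsn and Dmkn and for the pair Sprr1a and Sprr1b, since these members were higher together with SP. Capitals mark TGANTCA, and each sequence reads 5′ to 3′ on the strand of its gene. Krtdap is chr7:30787755-30787914, Sbsn chr7:30751321-30751480 and Dmkn chr7:30763606-30763765, all on the plus strand. Sprr1a is chr3:92485872-92486031 and Sprr1b chr3:92438770-92438929, both on the minus strand.
Krtdap: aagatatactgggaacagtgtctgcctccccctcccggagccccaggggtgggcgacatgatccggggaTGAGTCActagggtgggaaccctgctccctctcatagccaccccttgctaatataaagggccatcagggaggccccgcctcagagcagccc
Sbsn: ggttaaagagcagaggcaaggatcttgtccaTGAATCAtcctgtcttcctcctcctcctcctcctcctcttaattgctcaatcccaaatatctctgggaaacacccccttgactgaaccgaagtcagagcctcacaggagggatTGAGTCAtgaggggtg
Dmkn: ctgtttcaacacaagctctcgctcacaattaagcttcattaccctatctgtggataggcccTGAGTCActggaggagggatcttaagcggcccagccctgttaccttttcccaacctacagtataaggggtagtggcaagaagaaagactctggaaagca
Sprr1a: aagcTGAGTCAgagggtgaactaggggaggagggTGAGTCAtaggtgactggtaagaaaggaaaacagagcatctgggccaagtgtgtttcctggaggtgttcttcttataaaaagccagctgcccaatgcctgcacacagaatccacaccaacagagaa
Sprr1b: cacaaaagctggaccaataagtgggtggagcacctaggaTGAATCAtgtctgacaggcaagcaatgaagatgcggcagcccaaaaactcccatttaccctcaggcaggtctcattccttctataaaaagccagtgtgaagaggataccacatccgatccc
Krtdap and Dmkn held the letters TGAGTCA at 81 and 89 bases before the start shown, and Dmkn has 2 further starts in the table, with the letters at 91 and 82 bases before them. The upstream match of Sbsn and that of Sprr1b read TGAATCA, while Sprr1a held TGAGTCA at 2 places.

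Other genes of the squamous programme, from lists made by role, did not all move with the members. The 7 lists held 257 further genes with values, of which 178 passed in the SP comparison, 80 were higher and 29 lower. Among all genes 11.7% were higher and 19.8% lower in that comparison. With 6-OHDA 30 of 149 were higher and 28 lower, beside 15.8% and 8.35% of all genes. In culture 88 of 163 were higher and 56 lower, beside 55.7% and 26.6% of all genes. By more than 1, 71 of the 163 were higher and 36 lower, beside 30.7% and 13.2% of all genes. The share higher in culture was thus no larger than over all genes at the lower threshold, but larger at the stricter one. The share lower in culture was larger than over all genes at both thresholds, so these lists were spread more widely in both directions at the stricter one.

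Of 17 other squamous keratins, 8 passed in the SP comparison, with 5 higher and 1 lower. Krt6a, a keratin of activated and suprabasal keratinocytes, had 29.2 FPKM in the sorted control, 29.9 with 6-OHDA, 260.2 in control colonies and 2198 with SP. Its partner Krt16 had 67.2, 55.1, 44.1 and 434 FPKM, and the copy Krt6b had 0.12, 0.25, 16.5 and 214. Their changes with SP were 3.07, 3.27 and 3.62, and among the members only Krtdap at 4.11 and Klk10 at 3.14 changed by more than 3.07. With 6-OHDA none of the 7 that passed were higher and 3 were lower.

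Other desmosome and adhesion genes numbered 27, of which 13 of 25 were higher with SP and 4 lower. Dsg3, the desmoglein of the lower layers, stood at 3.71, 5.72, 68.9 and 198 FPKM in the sorted control, the 6-OHDA library, control colonies and the SP library. Dsg1b, a near copy of Dsg1a, stood at 0.01, 0.09, 1.23 and 8.48. The claudins Cldn7 and Cldn8, of tight junctions, were among the lower, with Cldn7 at 10.4, 7.75, 82.9 and 52.5 FPKM and Cldn8 at 0.45, 0.56, 8.65 and 4.25 in the same order. Another claudin, Cldn1, was higher with SP, at 7.22, 8.98, 23.1 and 48.8 FPKM.

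Among 42 other kallikreins, proteases and inhibitors, 13 of 26 were higher with SP and 5 lower. Klk14, a further desquamation protease, was at 0.06 FPKM in the sorted control, listed at 0 with 6-OHDA, and at 0.95 and 6.75 in the colonies. The stefin Stfa3, an inhibitor of cathepsins, was at 0.42, 14.4, 21.6 and 70.0 FPKM in that order of libraries, and Wfdc12, a small protease inhibitor, at 0.25, 17.3, 11.04 and 19.6. Both inhibitors were higher with 6-OHDA and with SP, like Serpinb2. In the 6-OHDA comparison Stfa3, Wfdc12 and Serpinb2 passed the filter only through the 6-OHDA library, so their direction there was fixed by it. Of the list, 5 of 21 were higher with 6-OHDA and 4 lower, beside 15.8% and 8.35% of all genes.

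Of 34 genes for the lipids of the skin barrier, 23 passed in the SP comparison, with 8 higher and 4 lower. Cers3, the ceramide synthase of the epidermis, was at 0.07, 0.22, 3.56 and 9.88 FPKM in the sorted control, the 6-OHDA library, control colonies and the SP library, and Sult2b1, which makes cholesterol sulfate, at 1.27, 0.95, 13.6 and 26.6. The median of this list was 0.10 over those that passed. Other squamous enzymes and cytosolic proteins were higher in 20 of 31 genes and lower in 0, with Fabp5, a fatty acid carrier, at 83.3, 102, 187 and 871 FPKM. The calcium-binding Calm4 was listed at 0 in the sorted control and stood at 1.27, 0.26 and 6.46 FPKM in the others.

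Other squamous regulators had no common direction with SP. Of 50 that passed 11 were higher and 13 lower, beside 11.7% and 19.8% of all genes, with a median of -0.03. Klf4, which drives barrier formation, was at 188 FPKM in the sorted control, 144 with 6-OHDA, 20.3 in control colonies and 36.6 with SP. The AP-1 subunit Fosl1 was at 240.3, 195.5, 1.27 and 5.14 FPKM in that order. These 2 factors were thus far lower in colonies, the reverse of Krtdap or Klk8, and were higher with SP by 0.82 and 1.44. Other AP-1 subunits went both ways with SP. Junb was lower, at 801, 619, 359 and 222 FPKM in that order, and Jund too, at 93.75, 85.3, 155 and 101. Fosl2 was higher, at 145, 121, 21.2 and 27.9 FPKM. Trp63 was at 42.8, 52.6, 46.5 and 80.9 FPKM, and Hopx, a cofactor of differentiation, at 2.59, 2.09, 3.60 and 13.2.

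Markers of other cell types moved in each comparison, and their part in the members' changes was not tested. With 6-OHDA, all 17 salivary gland secretory genes that passed, of 23, were higher, and the list summed to 40.8 FPKM in the sorted control and 16648 with 6-OHDA. The most abundant, Bpifa2, was listed at 0 and stood at 7277. In the sorted control 16 of the 23 were listed at 0, and the 6-OHDA library had none at 0. When the libraries were scaled to the same sum without these genes, 8 members were higher and 2 lower.

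Fibroblast markers were higher with 6-OHDA in 11 of 18 and lower in 0, summing to 1024 and 1245 FPKM, with Postn the most abundant at 702 and 688 and Col3a1 at 18.3 and 91.7. In the SP comparison 13 of 18 passed, 2 were higher and 8 lower, the sum was 2501 in control colonies and 1075 with SP, and the most abundant, Postn, was at 2376 and 1004; Dpt, Pi16 and Fap were listed at 0 with SP. Endothelial markers summed to 763 FPKM in the sorted control, 920 with 6-OHDA, 57.4 in control colonies and 18.8 with SP. Fabp4 was the most abundant except with SP, where Flt1 was at 8.87. It stood at 210, 374, 34.4 and 1.05 FPKM in that order, much of the differences of the sum with 6-OHDA and with SP. With 6-OHDA 3 of the 15 endothelial markers were higher and 0 lower. All 15 of them were lower in control colonies than in the sorted control, and Pecam1 went from 107 to 1.39 FPKM. With SP 2 of 6 were higher and 2 lower, and Cldn5 and Tie1 were listed at 0. Of the fibroblast markers 15 passed in culture, with 10 lower and 3 higher, while Postn went from 702 to 2376 FPKM.

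Basal and myoepithelial markers were higher with SP in 12 of 20 and lower in 1, and summed to 7988 FPKM in control colonies and 16309 with SP, with none at 0. The most abundant, Krt14, was at 3298 and 6919.9 FPKM, and Krt5 at 1888 and 4579. Basal keratins were thus higher in the same library as Krtdap, Klk8 and Spink5, and whether the same cells carried them was not tested. Of 24 luminal markers 22 passed, 5 were higher and 9 lower, with sums of 2426 and 2502 FPKM, Krt8 the most abundant at 698 and 683, and Wap and Csn2 listed at 0 in control colonies. In culture, where 55.7% of all genes were higher and 26.6% lower, 13 of 20 basal and myoepithelial markers were lower and 2 higher. They summed to 12855 FPKM in the sorted control and 7988 in control colonies. Of 21 luminal markers that passed there, 14 were higher and 3 lower, with sums of 1737 and 2426 FPKM.

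Markers of skin and leukocytes are given for all 4 libraries, in the order sorted control, 6-OHDA, control colonies and SP. Of 21 hair follicle and sebaceous gland markers 6 passed in the SP comparison, 4 were higher and 1 lower, and the list summed to 244, 206, 112 and 148 FPKM, led by Krt15, which basal mammary cells also express. The hair keratins Krt25, Krt28, Krt31 and Krt36 were listed at 0 in both colony libraries, whereas Krt71 was at 1.89 and 1.36 FPKM and Krt73 at 0.46 and 0.48. Of 8 melanocyte markers 2 passed, 0 were higher and 1 was lower, with sums of 52.7, 63.3, 10.6 and 9.81 FPKM led by Sox10, and Tyrp1 and Dct listed at 0 in both colony libraries. Of 11 mucosal squamous markers 2 passed and were higher, with sums of 47.0, 43.5, 72.1 and 92.1 FPKM led by Ecm1, and Krt36 and Muc4 at 0 in both colony libraries. The 22 leukocyte markers summed to 148, 71.6, 63.7 and 61.4 FPKM, led by Cd74 in the sorted control and by Cd14 in the others, with Ptprc at 0 in both colony libraries. With 6-OHDA 11 of them passed, 5 were lower and 0 higher, and Cd74 went from 73.0 to 19.5 FPKM; in culture 6 of 8 were lower and 1 higher, and with SP 3 passed and none was called. Whether skin cells carried over in the sort had a part in the levels of Krtdap or Ly6d was not tested.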

How the data were processed

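RNA-seq was analysed from 4 libraries, 1 per group. The deposited values are FPKM; per the submitters' processing notes the authors aligned reads to mm10 with Bowtie2 (no version given), quantified them with RSEM 1.3.1 and named DESeq2 1.4.5. Python 3.11.15, numpy 2.4.6, pandas 2.3.3 and matplotlib 3.10.9 were used here. Of 17630 genes, 17512 were matched by NCBI Gene identifier to RefSeq GRCm38.p6 and 118 were not. Changes are differences of log2(FPKM + 1) among genes with a mean of at least 1 FPKM, called at 0.3 and at 1. With 1 library per group no test was made. Depth was estimated from the steps between small FPKM values in single-transcript genes; counting alone gives an SD of about 23.1% to 25.9% at 1 FPKM on 1 kilobase. The calculations were tested on simulated data. Alternatives were a pseudocount of 0.1 or 5, no filter, a mean of at least 5 FPKM, rescaling to the same sum with and without salivary gland genes, rescaling by the median ratio, and quantile normalization.

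The members and lists were chosen with earlier results of these data known. All 40 members are accounted for. Of other lists, the 4 passing genes with the largest change in a comparison could be named, with values in all libraries; of cell type markers, the most abundant and the defining ones, with values in the libraries compared. Gapdhs is named as the only other gene that overlaps the interval from Sbsn to Krtdap, which was added after values were seen. Junb, Jund and Fosl2 are named outside the rule for other lists, as further AP-1 subunits. Protein sequences were planned but not compared, since no table of them was available.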

Additional observations from a re-analysis of the deposited data

How the results depend on the processing

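All 27 members higher with SP kept that call under each alternative in which they were compared. With 6-OHDA 4 of 7 higher and both lower calls were kept in this sense, and in culture 17 of 19 higher and 5 of 5 lower. A mean of at least 5 FPKM left some of these out: 21 members were then higher with SP (Cnfn, Evpl, Klk7, Krt1, Sprr2d and Tgm1 had no value), Krt1, Krt10 and Serpinb2 had none with 6-OHDA, and 4 members were lower in culture. Of 216 summary values 182 stayed and 34 moved (counts by over 1.5 times, medians by over 0.3), and those that moved follow. A reversal was looked for only in medians and single values over 0.3 in size, with 0 found, and a count could not reverse. The members' median with 6-OHDA, below that size at 0.0424, did change sign. It was -0.0232 with a mean of at least 5 FPKM and -0.0589 after quantile normalization. Of 577 values of single members 89 moved, and of 1152 values of the gene lists, all of them counts, 125 moved. These are not listed. With 6-OHDA, a pseudocount of 0.1 gave 224 genes higher by more than 1. A pseudocount of 5 gave 4 members higher by more than 0.3 and 1 by more than 1, 804 genes higher and 539 lower by more than 0.3, and 41 higher and 42 lower by more than 1. A mean of at least 5 FPKM gave 3 members higher by more than 0.3 and 0 by more than 1, 1066 genes higher and 639 lower by more than 0.3, and 49 higher by more than 1. Quantile normalization gave 4 members higher.

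With SP, a pseudocount of 0.1 gave 287 genes lower by more than 1. A pseudocount of 5 gave a members' median of 0.75, 1276 genes lower by more than 0.3, and 112 higher and 60 lower by more than 1. Without a filter the members' median was 0.89 and 1 member, Lor, was lower. A mean of at least 5 FPKM gave 103 genes lower by more than 1.

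In culture, a pseudocount of 0.1 gave a members' median of 2.16. A pseudocount of 5 gave a median of 0.69, 9 members higher by more than 1, and 2027 genes higher and 1019 lower by more than 1. Without a filter the median was 0.75 over 39 members, as Serpinb3a, listed at 0 in both libraries, was left out, and a mean of at least 5 FPKM left 11 members higher by more than 0.3 and 9 by more than 1. Rescaling by the median ratio gave a median of 1.21, with 2169 genes higher and 2549 lower by more than 1, and quantile normalization 1.22, with 2470 genes higher by more than 1. A larger pseudocount shrinks changes of low genes and a stricter filter compares fewer genes by construction; for the rest the cause was not tested. No paired analysis was possible because each group has 1 library, and for that reason no library could be left out. Depth limits what can be read from members under 1 FPKM, such as Sprr2d with an estimated 1.1 fragments in control colonies.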

Other observations

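Stress keratin and wound response genes are a list of 25 that shares genes with the lists above, among them Krt6a, Krt6b, Krt16 and Stfa3. With SP 15 of 22 were higher and 4 lower, beside 11.7% and 19.8% of all genes. With 6-OHDA 4 of 17 were higher and 5 lower, beside 15.8% and 8.35% of all genes. Most of these 4, Stfa3 among them, passed the filter only through the 6-OHDA library, so their direction was fixed by it. The FPKM of the list summed to 3795 in the sorted control, 3171 with 6-OHDA, 2262 in control colonies and 6044 with SP. The defensin Defb14 was listed at 0 in both sorted libraries and stood at 2.38 and 69.9 FPKM in the colonies. The cytokine Il24 was at 11.8, 7.89, 1.17 and 34.1 FPKM in the order given. Whether these genes were expressed by the cells that carried Krtdap or Sprr1b was not tested.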
